A study of Rattus norvegicus with 2 samples.

Results

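Tanycytes are elongated cells that line the floor and lower walls of the third ventricle. They share genes with both ependymal cells and astrocytes, and they are known to handle thyroid hormone and retinoids and to contact the portal capillaries of the median eminence, where releasing hormones leave the brain. Crym, a thyroid hormone binding protein, Stra6, a retinol transporter, and Vim, an intermediate filament protein, are commonly used to recognise them. The barcodes described here were chosen by measured counts. A barcode was selected when it held at least 200 detected genes, at least 3 of the 7 genes *Crym*, *Lhx2*, *Stra6*, *Calml4*, *Gsta1*, *Ppp1r1b* and *Rax*, fewer than 2 UMIs of the neuronal gene *Snap25*, fewer than 10 UMIs of ependymal genes (*Tmem212*, *Ccdc153*, *Foxj1* and *Pifo*) per 10000 UMIs of the barcode, and no UMI of *Adm*, *Frzb*, *Col25a1* or *Scn7a*, which were taken to mark tanycytes of the median eminence. A UMI is a random tag that marks each captured RNA molecule once. The rule selected 414 of the 8675 barcodes with at least 200 detected genes, 240 in Control and 174 in SC300. The files listed 4488 barcodes in Control and 4524 in SC300, which are the cell totals of the series' design text, and 4296 and 4379 of them held at least 200 genes.

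Hypothalamic tissue with the AVPV and the ARC was taken from female Sprague Dawley rats at PND 29, labelled 4 weeks of age. SC300 denotes rats given, at PND 0.5, a slow-release silicone implant loaded with 300 µg of EB (estradiol benzoate). Control rats are called intact in the labels and are given an oil capsule in the methods. Each group is 1 droplet-based 3′ library from the pooled, collagenase-dissociated tissue of 3 rats. Differences between individual rats are therefore not measured, and the groups are compared by description alone. All intervals are exact 95% intervals that cover counting error only. The selected barcodes held 2951770 UMIs in Control and 2572095 UMIs in SC300, with a median of 10137.5 and 11501 UMIs per barcode. The libraries shared 9 barcode sequences in the files, none of them among the selected barcodes.

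The counts went against a single identity for the selected barcodes. *Agt* (angiotensinogen) and *Aqp4* (a water channel), which are abundant in astrocytes, split them into 2 ranges with few barcodes between. *Agt* and *Aqp4* together were at 30 UMIs or more per 10000 in 103 of 240 Control barcodes (42.9%, 36.6 to 49.4) and in 76 of 174 SC300 barcodes (43.7%, 36.2 to 51.4), and only 9 and 5 barcodes lay between 20 and 40 per 10000. Below that limit the median was 4.46 per 10000 in Control and 2.86 in SC300, and above it 118 and 101. The limit was set after the values were seen and marks a range, not a cell type. The barcodes are called *Agt*/*Aqp4*-low (137 in Control, 98 in SC300) and *Agt*/*Aqp4*-high below.

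**Figure D1:**
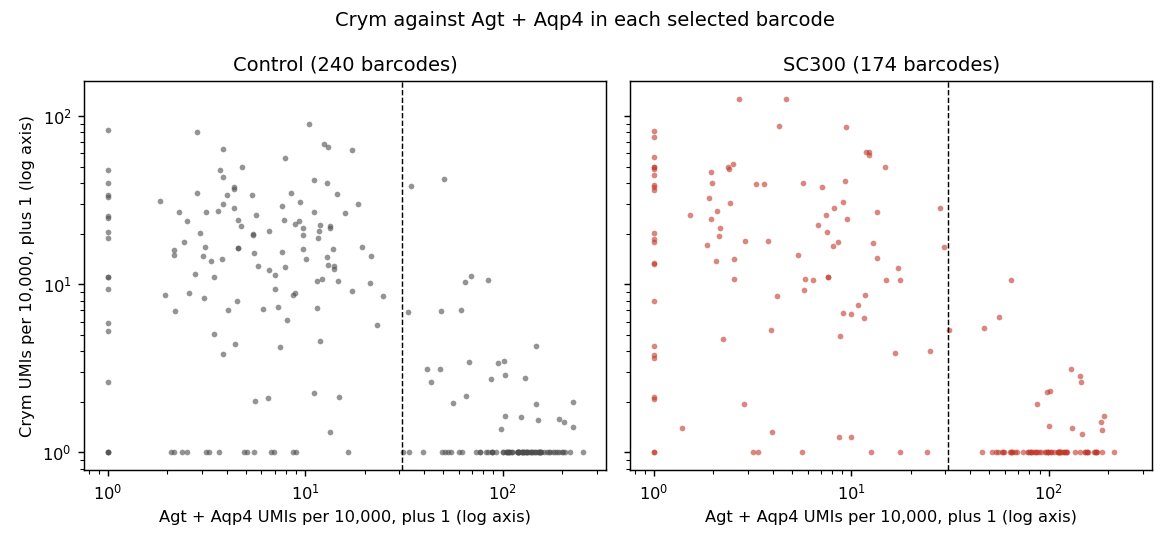
Each point is 1 selected barcode, with UMIs of *Agt* plus *Aqp4* per 10000 on the horizontal axis and UMIs of *Crym* per 10000 on the vertical axis, both plus 1 on log axes, for Control (240 barcodes) and SC300 (174 barcodes). The dashed line is the limit of 30 per 10000, and the barcodes to its right mostly lie at 0 *Crym* UMIs.

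The *Agt*/*Aqp4*-high barcodes entered the selection by a narrow margin. In Control 86 of 103 and in SC300 66 of 76 held exactly 3 of the 7 selecting genes, whereas 106 of 137 and 62 of 98 *Agt*/*Aqp4*-low barcodes held 5 or more. Exactly 3 were held by 15 of the low barcodes in Control and by 20 in SC300. The ratios of the low barcodes given below make no allowance for this difference. *Crym* was not detected in 71.8% (62.1 to 80.3) of the high barcodes in Control and 78.9% (68.1 to 87.5) in SC300, and in 13.1% (7.98 to 20) and 8.16% (3.59 to 15.5) of the low ones. The most frequent of the selecting genes in the high barcodes were *Gsta1*, a glutathione transferase (99% and 100% of barcodes), *Ppp1r1b*, which encodes the phosphatase regulator DARPP-32 (93.2% and 94.7%), and *Lhx2*, a homeobox factor (69.9% and 68.4%). An astrocyte gate, which asks for at least 3 of *Agt*, *Aqp4*, *Slc1a2*, *Slc6a11*, *Ntsr2* and *Gjb6* and for no UMI of *Mobp* or *C1qa*, was passed by 78.6% (69.5 to 86.1) of the high barcodes in Control and 81.6% (71.0 to 89.5) in SC300, and by 21.2% (14.7 to 29) and 13.3% (7.26 to 21.6) of the low barcodes. Each high barcode held both *Agt* and *Aqp4*, so only 1 further gene was needed, and the higher pass rate is largely set by the split. The high barcodes were deeper, with a median of 13829 and 13770 UMIs against 6187.5 and 6512 in the barcodes of this gate that held fewer than 3 selecting genes, called the astrocyte gate from here on, and the part of depth in their selection was not tested. Across all selected barcodes, 101 in Control and 86 in SC300 had exactly 3 of the 7 genes, and 364 and 371 more barcodes missed the rule only by having 2.

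Levels of the selecting genes, given as UMIs per 1000000 UMIs of a set (CPM), describe the difference between both ranges and are no test of it, since these genes chose the barcodes. *Crym* stood at 1706 CPM in *Agt*/*Aqp4*-low Control barcodes and 2266 CPM in low SC300 barcodes, against 110 and 30.1 CPM in the high ones. *Stra6* stood at 242 and 73.5 CPM in the low barcodes and at 13.1 and 0.884 CPM in the high ones. *Calml4*, a calmodulin-like protein of epithelial cells, was at 339 and 314 CPM in the low and 31.1 and 40.7 CPM in the high barcodes. *Rax*, a homeobox factor that defines tanycytes in many atlases, was close to absent, with 9 UMIs in all Control barcodes and 10 in all SC300 barcodes. *Vim*, which the rule did not use, had a UMI in 98.5% and 98% of the low barcodes, and in 48.5% and 39.5% of the high ones. *Gfap*, an intermediate filament of astrocytes, was at 80.4 and 63.8 CPM in the low barcodes and at 4181 and 6081 CPM in the high barcodes, where it exceeded the 1225 and 728 CPM of the astrocyte gate.

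**Figure D2:**
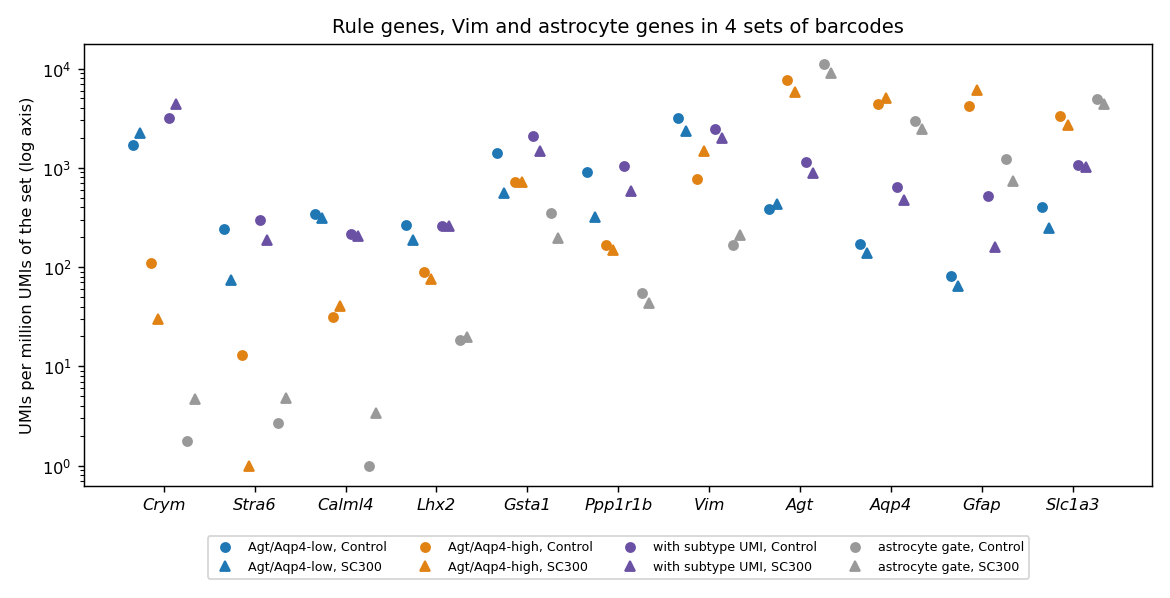
CPM (log axis) of 6 selecting genes, *Vim* and 4 genes of astrocytes in *Agt*/*Aqp4*-low and -high selected barcodes, in barcodes that met the rule but held a UMI of *Adm*, *Frzb*, *Col25a1* or *Scn7a*, and in the astrocyte gate, with circles for Control and triangles for SC300. Values under 1 CPM are drawn at 1. *Crym*, *Stra6* and *Calml4* lie lower, and *Agt*, *Aqp4* and *Gfap* higher, in the high than in the low barcodes.

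Genes of other cell types were present in both ranges. Of the 8 genes of an ependymal list that the rule had not used, all 8 in Control and 7 in SC300 had UMIs in the *Agt*/*Aqp4*-low barcodes, with a summed level of 2003 and 1811 CPM, and 2 or more of them were found in 95.6% and 88.8% of these barcodes. *Dynlrb2*, a dynein light chain of motile cilia, was the most abundant of them in Control, at 647 CPM, against 1981 CPM in barcodes that exceeded the ependymal limit. Microglial genes were near 0 (14 and 18.7 CPM over 6 genes). Haemoglobin genes were detected in more of the Control barcodes. In Control 84.7% and in SC300 33.7% of the low barcodes held UMIs of 2 or more haemoglobin genes, close to the shares over all barcodes with at least 200 genes (84.5% and 33.9%). Their summed level in the low SC300 barcodes, 9363 CPM, came mostly from 1 barcode, which held 98.5% of the UMIs of *LOC103694857*, the most abundant of them. Endothelial genes, of which the 3 with at least 100 UMIs were over 2-fold higher in SC300 (2.4% of all genes tested were), summed to 392.2 CPM in Control and 1054 CPM in SC300 low barcodes, with 5 and 6 barcodes holding 2 or more. In the high barcodes they summed to 248.7 and 82.26 CPM, and the 2 with at least 100 UMIs were over 2-fold lower (22 of all 3710 genes tested were). Their part in the results below was not tested.

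The selected barcodes made up a smaller share of the SC300 library. They were 5.59% (4.92 to 6.32) of the barcodes with at least 200 genes in Control and 3.97% (3.41 to 4.59) in SC300. The log2 ratio of the shares was -0.49 (-0.78 to -0.20). The *Agt*/*Aqp4*-low barcodes were 3.19% (2.68 to 3.76) and 2.24% (1.82 to 2.72), and the high barcodes were 2.40% (1.96 to 2.90) and 1.74% (1.37 to 2.17). Barcodes that met the rule but for a UMI of *Adm*, *Frzb*, *Col25a1* or *Scn7a*, called subtype-marker barcodes here, were also a smaller share in SC300, with 112 barcodes (2.61%, 2.15 to 3.13) in Control and 67 (1.53%, 1.19 to 1.94) in SC300. Selected barcodes were 68.2% (63.0 to 73.0) and 72.2% (66.1 to 77.8) of all that met the rest of the rule, and these intervals overlap. Among the alternatives tried, the share in Control was below that in SC300 only when barcodes with 2 or more genes of another cell type were left out (0.559% and 1.28%), a filter that removed 197 of 240 Control and 53 of 174 SC300 barcodes for haemoglobin. Without the haemoglobin list it left 2.21% and 1.51%. The dissection of a small ventricular wall also sets such shares, and this cannot be told apart from treatment with 1 pool per group.

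The absence of a subtype UMI depended on depth. When subtype-marker barcodes were thinned to 5000 UMIs each, 23 of 101 in Control (22.8%) and 15 of 58 in SC300 (25.9%) no longer held such a UMI. In the deposited counts 30 of 112 and 21 of 67 of them held exactly 1. The boundary between the selected and the subtype-marker barcodes therefore rested on single molecules in these barcodes.

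Between the libraries, *Aldh1a1*, *Ces1d*, *Sfrp2* and *Trhde* were among the genes furthest below Control in the selected SC300 barcodes, and *Tnnc2*, *Trdn*, *Tac1* and *Dio3* among those furthest above. Over all selected barcodes, 67 of 6318 genes with at least 100 UMIs (1.06%) were over 2-fold higher in SC300 and 53 (0.839%) were over 2-fold lower, with a median log2 ratio of -0.04. In the *Agt*/*Aqp4*-low barcodes alone, 100 of 4160 genes (2.4%) were over 2-fold higher and 116 (2.79%) were over 2-fold lower, with a median of -0.06. A gene that reached 100 UMIs through 1 library alone had to differ, so counts and medians over list members with at least 100 UMIs are descriptions. In the *Agt*/*Aqp4*-high barcodes the same limits gave 13 genes higher and 22 lower of 3710. These numbers describe 2 libraries and are not counts of regulated genes, and in these sums over barcodes a change in the proportion of barcodes that carry a gene cannot be told apart from a change in each of them. Shares of barcodes at equal depth are therefore given beside the levels, after 15 Control and 6 SC300 low barcodes under 5000 UMIs were left out. Barcodes of a microglia gate (median 6903.5 and 7600 UMIs before thinning) serve as background, and 332 and 379 of them reached that depth.

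*Aldh1a1*, which makes retinoic acid from retinal, had 210 UMIs in 55 of 137 *Agt*/*Aqp4*-low barcodes in Control (140 CPM) and 4 UMIs in 3 of 98 in SC300 (2.77 CPM, log2 -5.65, -7.54 to -4.27). In the high barcodes *Aldh1a1* was at 21.4 CPM in Control and 24.8 CPM in SC300 (log2 0.21, -0.58 to 0.99). At 5000 UMIs per barcode, the share of low barcodes with an *Aldh1a1* UMI was 32.0% (23.8 to 41.0) in Control and 1.09% (0.0275 to 5.91) in SC300. Barcodes of the microglia gate, which should lack it, had 1.20% and 0.528% at the same depth. *Stra6* is 1 of the genes that selected the barcodes, so its values are a description of the selection and support nothing here. Its log2 ratio in the low barcodes was -1.72 (-2.04 to -1.40), and 56.6% (47.3 to 65.5) of them in Control and 32.6% (23.2 to 43.2) in SC300 held a UMI at equal depth. Other retinoid genes did not move together. *Dhrs3*, a retinal reductase, was over 2-fold higher (32 and 79 UMIs, log2 1.37, 0.76 to 2.01), while *Rara*, a retinoic acid receptor, differed by 0.09 (-0.31 to 0.49).

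**Figure D3:**
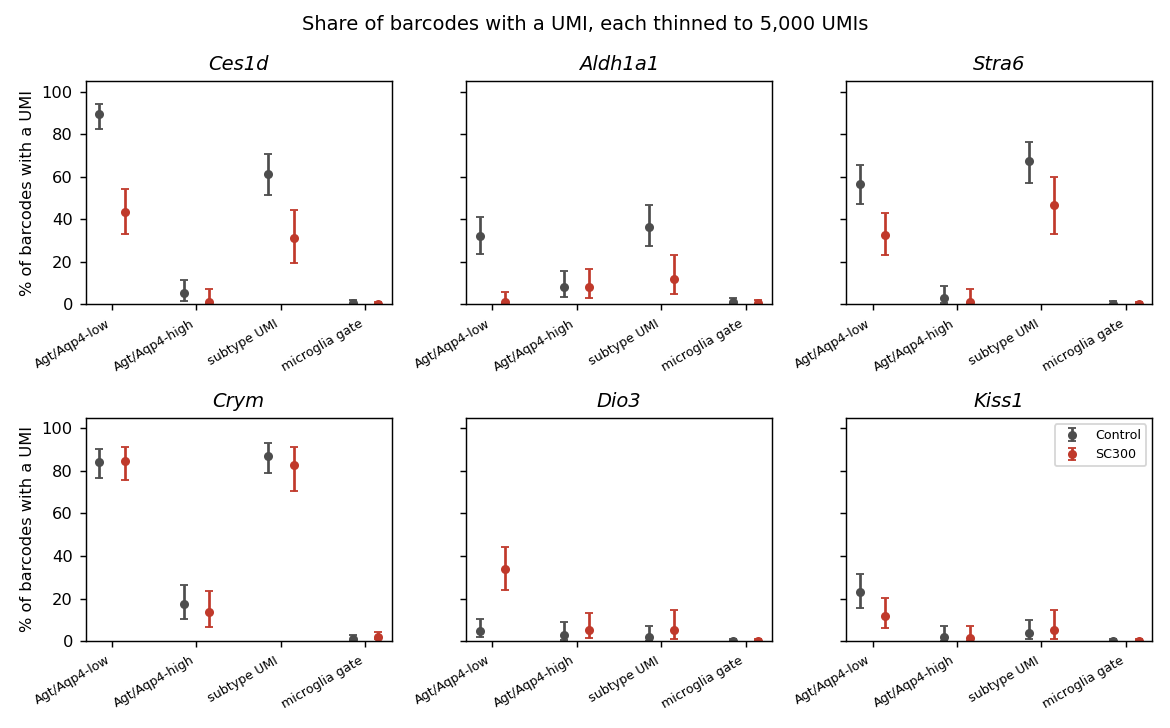
Share of barcodes (percent) with at least 1 UMI of each of 6 genes after thinning every barcode to 5000 UMIs, for *Agt*/*Aqp4*-low and -high selected barcodes, subtype-marker barcodes and the microglia gate, in Control (grey) and SC300 (red). Bars are exact 95% binomial intervals, and shallower barcodes were left out. In the low barcodes *Ces1d*, *Aldh1a1* and *Kiss1* have lower and *Dio3* has higher shares in SC300. *Stra6* and *Crym* (84.4% and 84.8%) are selecting genes, and their shares are in part set by the rule.

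Lipid and acyl-CoA genes are given first over all selected barcodes, where 1 of the 15 with at least 100 UMIs was over 2-fold lower, 2 were higher at all and the median log2 ratio was -0.29, against 0.839% over 2-fold lower and a median of -0.04 over all genes tested. In the *Agt*/*Aqp4*-low barcodes, a range set after the values were seen, 11 had at least 100 UMIs. Of these, 1 was higher at all, none was over 2-fold higher and 5 were over 2-fold lower, with a median log2 ratio of -0.93. Over all 4160 genes tested in these barcodes 1767 were higher at all and 2.79% were over 2-fold lower, with a median of -0.06. In the high barcodes 8 of 13 were higher at all, with a median of 0.03. Lists of other cell types differed in both directions in the same low SC300 barcodes. Oligodendrocyte genes were lower, at 1987 and 487 CPM, and so were astrocyte genes, at 1328 and 940.7 CPM. Genes of oligodendrocyte precursors were higher, at 32.57 and 156.1 CPM, and so were endothelial genes, at 392.2 and 1054 CPM. Low barcodes with 2 or more oligodendrocyte genes were 49.6% in Control and 59.2% in SC300, near the 53.9% and 61.5% over all barcodes with at least 200 genes. The part of these lists in the lipid ratios was not tested. *Ces1d*, a carboxylesterase that cleaves lipid esters, had 1233 UMIs in 125 low Control barcodes (820 CPM) and 140 UMIs in 57 low SC300 barcodes (97.1 CPM), a log2 ratio of -3.08 (-3.34 to -2.82). *Dbi*, the acyl-CoA binding protein, was among the 10 most abundant genes of the selected barcodes, and stood at 7128 CPM in Control and 2254 CPM in SC300 in the low barcodes (log2 -1.66, -1.72 to -1.60). *Dbi* differed little in the high barcodes (6253 and 6964 CPM, log2 0.16). *Plin2*, which coats lipid droplets, *Acsl6* and *Acsl3*, which activate fatty acids, had log2 ratios of -1.75, -1.63 and -1.25 in the low barcodes and 0.07, -0.24 and -0.41 in the high ones. *Apoe*, the main lipid carrier of the brain, was at 10839 and 5684 CPM in the low barcodes (log2 -0.93, -0.97 to -0.89) and at 32203 and 32539 CPM in the high ones. *Apoe* and *Dbi* are also abundant in the astrocyte gate, where *Apoe* stood at 36678 and 36209 CPM.

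Further named genes were lower. *Sfrp2*, a secreted inhibitor of Wnt signals, had 343 UMIs in 102 *Agt*/*Aqp4*-low Control barcodes and 48 UMIs in 29 low SC300 barcodes (log2 -2.78, -3.24 to -2.34). *Trhde*, the ectoenzyme that degrades thyrotropin-releasing hormone, had 103 UMIs in 58 low Control barcodes and 16 UMIs in 15 low SC300 barcodes (log2 -2.62, -3.48 to -1.86). Its share of low barcodes at 5000 UMIs was 28.7% (20.9 to 37.6) in Control and 9.78% (4.57 to 17.8) in SC300, and 0 of 332 and 0 of 379 barcodes of the microglia gate held a UMI. *Slc7a11*, the cystine transporter, *Entpd2*, an ectonucleotidase, and *Lgi4*, a secreted glial protein, had log2 ratios of -3.10, -3.06 and -2.80 in the low barcodes, and of -0.44, -0.25 and -0.17 in the high ones. *Tnfsf13*, a cytokine of the tumour necrosis factor family, had 229 and 14 UMIs in the low barcodes (log2 -3.97, -4.86 to -3.19). *Gsta1* and *Ppp1r1b*, both used for the selection, were also over 2-fold lower in the low barcodes (log2 -1.36 and -1.5), but differed by -0.01 and -0.15 in the high ones. *Dbp*, a clock-controlled transcription factor, was at 251 CPM in Control and 71.5 CPM in SC300 in the low barcodes (log2 -1.81, -2.14 to -1.5) and at 405 and 393 CPM in the high barcodes. Of 5 genes of its clock phase *Dbp* was the 1 over 2-fold lower in the low barcodes, and all 5 were lower at all, with a median of -0.73, against 2.79% over 2-fold lower and 1767 of 4160 higher at all among the genes tested. Over all selected barcodes none of the 5 passed 2-fold and the median was -0.45. Of 7 genes of the opposite phase, the 1 with at least 100 UMIs, *Rorb*, a nuclear receptor, was lower as well (147 and 47 UMIs, log2 -1.58, -2.09 to -1.10), and over all selected barcodes the 4 with at least 100 UMIs were lower, with a median of -0.29.

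Among thyroid hormone genes, *Dio3* was the 1 that was over 2-fold higher. *Dio3*, the deiodinase that inactivates thyroid hormone, had 20 UMIs in 11 *Agt*/*Aqp4*-low Control barcodes and 282 UMIs in 42 low SC300 barcodes, or 13.3 and 196 CPM (log2 3.88, 3.22 to 4.61). In the high barcodes *Dio3* had 8 and 6 UMIs. At equal depth it was found in 4.92% (1.83 to 10.4) of low barcodes in Control and 33.7% (24.2 to 44.3) in SC300, and in 0 of 332 and 0 of 379 barcodes of the microglia gate. *Dio3* was higher in SC300 in barcodes above the ependymal limit as well, at 1.43 and 38.9 CPM. Of 6 thyroid hormone genes with at least 100 UMIs in the low barcodes, 1 was over 2-fold higher and 1 lower (*Trhde*), with a list median of -0.20, against 2.4% and 2.79% of all genes tested and a median of -0.06. *Dio3* reached that number through SC300 alone and *Trhde* through Control alone. Their directions were thus fixed by the filter, and these counts are a description only. *Slco1c1*, a transporter of thyroxine, had a log2 ratio of -0.42 (-0.61 to -0.23). *Crym*, a selecting gene and so no independent result, had 0.41 (0.33 to 0.48).

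Of 12 genes of a muscle type, 3 had at least 100 UMIs in the *Agt*/*Aqp4*-low barcodes, *Tnnc2*, *Cox6a2* and *Trdn*. Each reached that number through SC300 alone, so their direction was fixed by the filter, and the list had been drawn up with these genes known to differ. Their values are a description only. *Tnnc2*, the fast skeletal troponin C, had 2 UMIs in Control and 264 UMIs in 32 of 98 barcodes in SC300 (log2 7.11, 5.24 to 10.16), and its most loaded barcode held 16.7% of them. *Cox6a2*, a heart and muscle subunit of cytochrome c oxidase, had 3 and 133 UMIs (log2 5.53, 3.95 to 7.83). *Trdn*, a calcium release protein of muscle, had 3 and 123 UMIs, the latter in 42 barcodes (log2 5.42, 3.84 to 7.72). In the high barcodes *Tnnc2* had 20 UMIs in Control and 3 in SC300 (log2 -2.38, -4.77 to -0.63), and *Cox6a2* had 116 and 104. In subtype-marker barcodes *Tnnc2* had 3 and 20 UMIs. These 3 genes were picked by the filter, and whether the same barcodes held them was not tested. The 250 bases before the annotated start of each are shown as a description only. They come from RefSeq on build GRCr8, each on the minus strand, at chr3:173935340-173935589 for *Tnnc2*, chr1:26229600-26229849 for *Trdn* and chr1:192219717-192219966 for *Cox6a2*, written 5′ to 3′ with capitals for matches to the E-box motif CANNTG, which reads alike on both strands.
Tnnc2: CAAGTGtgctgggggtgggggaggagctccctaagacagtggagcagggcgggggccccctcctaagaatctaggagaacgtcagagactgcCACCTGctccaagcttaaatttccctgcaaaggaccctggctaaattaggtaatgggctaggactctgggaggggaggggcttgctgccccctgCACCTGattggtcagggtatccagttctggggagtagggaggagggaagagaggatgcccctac
Trdn: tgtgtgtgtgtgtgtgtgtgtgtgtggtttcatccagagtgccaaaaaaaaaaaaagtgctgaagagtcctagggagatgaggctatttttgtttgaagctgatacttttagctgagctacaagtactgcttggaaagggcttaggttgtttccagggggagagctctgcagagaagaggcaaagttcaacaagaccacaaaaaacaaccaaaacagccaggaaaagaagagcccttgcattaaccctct
Cox6a2: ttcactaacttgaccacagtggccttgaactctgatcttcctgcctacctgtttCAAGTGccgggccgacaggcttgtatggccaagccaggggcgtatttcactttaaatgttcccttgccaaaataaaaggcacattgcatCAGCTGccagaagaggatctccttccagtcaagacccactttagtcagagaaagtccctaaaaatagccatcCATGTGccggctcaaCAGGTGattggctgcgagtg
*Tnnc2* held 3 matches, *Cox6a2* 4 and *Trdn* 0, and 65.5% of the 33465 promoters in the table held at least 1. A match is a description of letters and not a binding site, and the lack of one in *Trdn* says only that these letters are not in this window.

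Neuropeptide transcripts were present at low levels. *Kiss1*, which encodes kisspeptin, had 87 UMIs in 52 of 137 *Agt*/*Aqp4*-low barcodes in Control (57.8 CPM) and 31 UMIs in 21 of 98 in SC300 (21.5 CPM), a log2 ratio of -1.43 (-2.07 to -0.82). At 5000 UMIs the share with a *Kiss1* UMI was 23.0% (15.8 to 31.4) in Control and 12.0% (6.12 to 20.4) in SC300, against 0 of 332 and 0 of 379 barcodes of the microglia gate, for which the exact interval reaches 1.1% and 0.969%, and 0.576% and 0.704% of the astrocyte gate. It was 3.96% (1.09 to 9.83) and 5.17% (1.08 to 14.4) in the subtype-marker barcodes. *Pomc*, the precursor of melanocortins, had 262 UMIs in 73 low Control barcodes and 76 UMIs in 39 low SC300 barcodes (log2 -1.72, -2.11 to -1.35). *Pomc* was also found in 4.82% and 3.17% of the microglia gate at equal depth. *Tac1*, the substance P precursor, had 5 UMIs in 5 low Control barcodes and 143 in 35 low SC300 barcodes (log2 4.90, 3.64 to 6.54), and 2.46% (0.510 to 7.02) and 21.7% (13.8 to 31.6) of low barcodes held a *Tac1* UMI at equal depth, against 0.904% and 1.85% of the microglia gate. Over 7 neuronal genes other than peptides the summed level in the low barcodes was 196.1 CPM in Control and 133.9 CPM in SC300. *Stmn2* was the most abundant of them at 152 and 103 CPM, above *Kiss1*. Low barcodes with 2 or more of these genes were 23.4% and 22.4%, although the rule had limited *Snap25*. In the subtype-marker barcodes the sums were 62.59 and 76.65 CPM. The part of neuronal RNA in the peptide counts was not tested. None of 11 steroid hormone receptor genes, *Esr1* among them, reached 100 UMIs in the low barcodes.

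**Figure D4:**
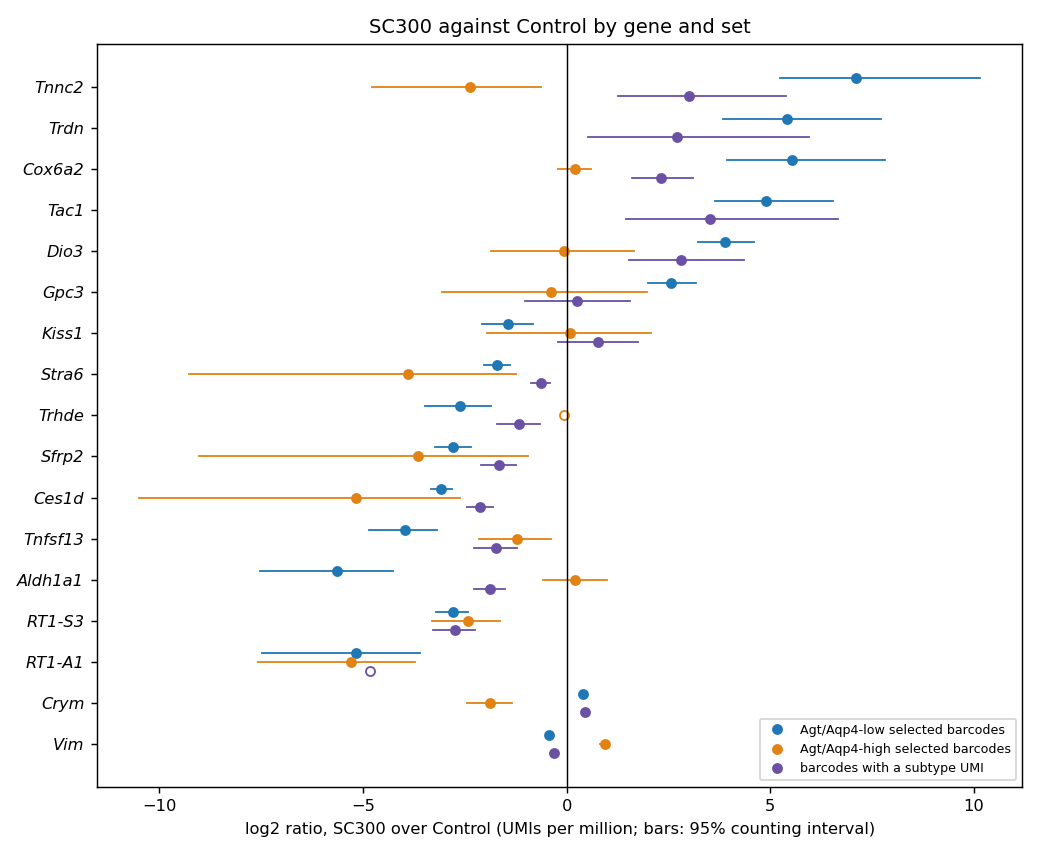
Log2 ratio of CPM, SC300 over Control, for 17 genes in *Agt*/*Aqp4*-low selected barcodes (blue), *Agt*/*Aqp4*-high selected barcodes (orange) and subtype-marker barcodes (purple), with bars for the 95% counting interval. Hollow points are bounds, with a count of 0 set to 3 UMIs, and genes with 3 UMIs or fewer in both libraries of a set are not drawn. *Tnnc2*, *Crym* and *Vim* lie on opposite sides of 0 in the low and high barcodes.

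*RT1-A1*, *Fam111a*, *RGD1309362* and *Arl16* differed over 2-fold in the same direction in the selected barcodes and in the microglia gate, whereas *RT1-T24-4* and *RT1-S3* did not. *RT1-A1*, a class I histocompatibility gene, had 264 UMIs in Control and 6 in SC300 over all selected barcodes (log2 -5.26, -6.72 to -4.12), and it stood at 742 and 29.97 CPM in the microglia gate. *RT1-T24-4* had 326 and 5 UMIs (log2 -5.83) and 46.4 and 25.4 CPM in the microglia gate, and *RT1-S3* had 547 and 76 UMIs (log2 -2.65) and 58.2 and 57.2 CPM in the microglia gate. *Fam111a*, a protease with a role in viral restriction, had 1 UMI in Control and 114 in SC300, and 0.268 and 143 CPM in the microglia gate. *RGD1309362* had 0 and 109 UMIs, which makes it at least 41.7-fold higher in SC300 with 3 UMIs as the floor, and 0 and 94.7 CPM in the microglia gate. *Arl16*, a small GTPase, was lower in the selected barcodes (39.6 and 8.17 CPM, log2 -2.28) and in barcodes of the microglia gate (18.3 and 3.53 CPM) and of the oligodendrocyte gate (39.3 and 12.4 CPM). Genes of the RT1 family share sequence, and reads may have been divided among them in the counting. Of 8 histocompatibility and interferon genes with at least 100 UMIs in the low barcodes, 5 were over 2-fold lower and none over 2-fold higher, against 2.79% and 2.4% of all genes tested. The list median was -1.77, and 2 of the 8 were higher at all, among them *B2m*, the common light chain, at a log2 ratio of 0.29 (0.19 to 0.39).

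Further lists are given by their counts in the *Agt*/*Aqp4*-low barcodes, where 2.4% of all genes tested were over 2-fold higher, 2.79% over 2-fold lower and 1767 of 4160 higher at all, with a median log2 ratio of -0.06. Of 11 immediate-early genes 1 (*Nr4a1*, 33 and 87 UMIs) was over 2-fold higher and 8 were higher at all, with a list median of 0.04. Of 16 iron and redox genes 2 were over 2-fold higher, *Tfrc*, the transferrin receptor, among them at 1.18 (0.72 to 1.66), and 3 were higher at all, with a list median of -0.24 and *Fth1*, ferritin heavy chain, at -0.97 (-1.01 to -0.93). Of 14 glucose and lactate genes measured, 4 had at least 100 UMIs, and these were all higher with none past 2-fold and a median of 0.62, among them *Ldha* at 0.73 (0.59 to 0.88) and *Slc2a1*, the glucose transporter GLUT1, at 0.87 (0.64 to 1.10), and 23.2% of the *Slc2a1* UMIs in SC300 came from 1 barcode. Over all selected barcodes the medians of the 3 lists were 0.29, -0.13 and 0.22, against -0.04 over all genes tested. *Id4*, an inhibitor of differentiation factors, was at 1141 and 2074 CPM (log2 0.86, 0.78 to 0.95). *Tmsb4x*, an actin-binding peptide and among the most abundant genes of the low barcodes, was at 23421 and 44384 CPM (log2 0.92), and at 4108 and 3362 CPM in the high ones. *Fgf10*, a growth factor of ventral tanycytes, had 36 and 89 UMIs (log2 1.37, 0.79 to 1.97), and *Gpc3*, a heparan sulphate proteoglycan, had 30 and 170 (log2 2.56, 2.00 to 3.18). *Gpc3* is more abundant above the ependymal limit, at 638 and 439 CPM.

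The selected barcodes were compared with the subtype-marker barcodes within each library. Over 2-fold in both libraries, 220 of 7500 genes (2.93%) were higher in the selected barcodes and 67 (0.893%) were lower. The subtype-marker barcodes held fewer *Agt*/*Aqp4*-high barcodes, 12.5% (7.01 to 20.1) in Control and 20.9% (11.9 to 32.6) in SC300. With both sets limited to low barcodes, 85 of 5980 genes (1.42%) were higher and 51 (0.853%) lower, *Frzb* among the latter by the rule. *Tnfrsf19*, a receptor linked to Wnt signals, was higher in the low selected barcodes in Control (186 and 24.1 CPM, log2 2.95, 2.41 to 3.54) and in SC300 (169 and 33.4 CPM, log2 2.33, 1.83 to 2.88). *Hapln1*, a link protein of the extracellular matrix, was higher by 3.71 (2.54 to 5.20) and 2.68 (1.55 to 4.05), and *Msx1*, a homeobox factor, by 3.38 (2.08 to 5.06) and 3.97 (2.03 to 7.06). *Dlk1*, a Notch-like membrane protein, was lower in Control (11.3 and 744 CPM, log2 -6.04, -6.83 to -5.35) and in SC300 (40.9 and 536 CPM, log2 -3.71, -4.12 to -3.32). *Six6*, a homeobox factor of the ventral hypothalamus, was lower by log2 ratios of -4.59 (-5.75 to -3.64) and -2.80 (-3.54 to -2.11), and *Hsd11b1*, which regenerates glucocorticoid, by -3.19 (-4.71 to -1.97) and -2.51 (-3.43 to -1.69). *Gpx3*, a secreted glutathione peroxidase, *Chst1*, a sulphotransferase, and *Pou3f1*, a POU-domain factor, were lower in both libraries, with log2 ratios between -2.85 and -2.17. *Kiss1* was higher in the low selected barcodes in Control (log2 2.13, 1.37 to 2.97) and did not differ beyond its counting interval in SC300 (log2 0.14, -0.70 to 1.01). *Slc17a8*, *Vcan* and *Cd59* are used as markers of dorsal tanycytes. *Slc17a8* had 0 UMIs in either set, *Vcan* had log2 ratios of -0.28 (-1.11 to 0.55) and -0.19 (-0.95 to 0.58), and *Cd59* of 0.82 (0.29 to 1.37) and 0.58 (-0.04 to 1.23).

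The SC300 to Control ratios of the subtype-marker barcodes are set beside those of the selected low barcodes, without a test of the difference. Both sets are unlike, since the subtype-marker barcodes were not limited to low ones here. Of them, 12.5% in Control and 20.9% in SC300 were *Agt*/*Aqp4*-high. *Aldh1a1* had a log2 ratio of -1.88 (-2.27 to -1.51) in subtype-marker barcodes and -5.65 in low selected ones, *Ces1d* -2.12 (-2.44 to -1.81) and -3.08, and *Sfrp2* -1.67 (-2.11 to -1.25) and -2.78. *Dio3* had 2.81 (1.54 to 4.35) and 3.88, and *Trhde* -1.17 (-1.71 to -0.65) and -2.62. *Pomc* had -2.34 (-2.54 to -2.14) and -1.72. *Gpc3* had 0.26 (-1.02 to 1.55) and 2.56, and *Fgl2*, a fibrinogen-like protein, -0.25 (-1.88 to 1.29) and 4.22 (3.05 to 5.70).

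The selected barcodes varied widely among themselves. At 5000 UMIs per barcode, the genes with the largest ratio of variance to mean in both libraries included *Tmsb4x*, *Apoe*, *Gfap*, *Mbp*, *Cst3* and *Agt*. *Mbp* is a myelin gene. In the low Control barcodes 1 barcode held 95% of the *Apod* UMIs, and 1 barcode held 88.8% of the *Ptgds* UMIs, and the lower levels of both genes in SC300 (log2 -3.50 and -3.22) rest on single barcodes. *Nrgn*, a postsynaptic protein, was higher in SC300 in 7 of 98 low barcodes (147 UMIs, log2 2.87), and 1 of them held 40.8%. *Crym* ranged up to 88.4 UMIs per 10000 in the low Control barcodes and 126 in the low SC300 barcodes, with medians of 13.7 and 16.8.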

How the data were processed

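The authors demultiplexed and counted the reads with Cell Ranger (3.0.2 for demultiplexing in the methods, 3.0.1 in the submitters' processing notes), aligned to Ensembl release 96, and deposited counts of UMIs per gene and barcode for 32883 genes, without normalization. A merging step is named in the methods, and its effect on the counts is not given in the sources used here. Depth was 51382276 UMIs in Control and 56390355 in SC300 barcodes with at least 200 genes. *Foxj1* could not be matched, so 3 of the 4 ependymal genes were used. The members, lists and comparisons were chosen with earlier results of these data known.

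UMIs were summed per gene over the barcodes of a set in each library and scaled to CPM. With 1 library per group no *P*-value was computed. Exact 95% intervals were those of Clopper and Pearson for a share and of the conditional binomial for a ratio, and a 0 was set to 3 UMIs. Gates for comparison sets required under 2 *Snap25* UMIs and at least 3 of 6 microglial genes without *Mobp*, at least 3 of 6 astrocyte genes without *Mobp* or *C1qa* and, for the comparison set but not for the pass rates of selected barcodes, fewer than 3 selecting genes, or at least 4 of 6 oligodendrocyte genes with 2 or more UMIs without *C1qa*. Named genes were the selecting genes, list members, the 12 with the highest and 12 with the lowest ratios among genes with at least 100 UMIs in 20 or more barcodes, and the 10 most abundant and 10 most variable. The same ranking in *Agt*/*Aqp4*-low barcodes was added after their values were seen. Some genes that meet these rules are not reported here. Doublets called by Scrublet (70 and 73 barcodes, 1.63% and 1.67% of those with at least 200 genes) were kept. Among selected barcodes 10 in Control (4.17%) and 5 in SC300 (2.87%) were called. The called shares were 7.77% and 2.63% of the high barcodes, and 1.46% and 3.06% of the low ones. In the astrocyte gate 1.12% and 1.04% were called. The ratio and its interval were tested on simulated counts with counting error only. That simulation held no variation between barcodes, so it cannot show how the intervals perform on these data. Python 3.11.15, numpy 2.4.6, scipy 1.17.1, pandas 2.3.3 and scanpy 1.11.5 were used.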

Additional observations from a re-analysis of the deposited data

Results flagged for a closer look

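For the 10 entries flagged, the counting intervals of the SC300 to Control ratio lay on opposite sides of 0 in the *Agt*/*Aqp4*-low and the *Agt*/*Aqp4*-high barcodes. The difference between both ratios was not tested. These entries are not all the genes with opposite directions. *Dbi* and *Tmsb4x* above also had them, as did the endothelial gene *Cldn5* (241.9 and 691.6 CPM in the low, 141 and 53.07 CPM in the high barcodes). *Crym* had a log2 ratio of 0.41 in the low and -1.87 in the high barcodes, where 30.8% of its Control UMIs came from 1 barcode. *Vim* had -0.44 and 0.94. *Tnnc2* had 7.11 and -2.38. *Ifi27l2b*, an interferon-induced gene, had a bound of -1.16 in the low barcodes, where SC300 had 0 UMIs, and 2.88 in the high ones, where 55.3% of the SC300 UMIs were in 1 barcode. *Apod* had -3.50 and 0.87, and *Ptgds* -3.22 and 1.12, with 95% and 88.8% of their low Control UMIs in 1 barcode. Haemoglobin genes had 4.65 and -3.80 (*Hbb*), 4.29 and -4.07 (*LOC103694857*), and 4.30 and -2.97 and 4.11 and -5.15 (the 2 entries named *Hba-a2*), and 1 barcode held 98.1% of the *Hbb* UMIs in low SC300 barcodes.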

How the results depend on the processing

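With 1 library per group nothing here measures variation between rats, and the depth of about 10000 UMIs per barcode limits what a missing UMI can show. The shares of selected barcodes were 5.59% in Control and 3.97% in SC300 (log2 -0.49). They were 3.24% and 2.01% with at least 4 selecting genes, 4.84% and 3.24% with 0 *Snap25* UMIs, 3.98% and 3.22% with ependymal genes under 5 per 10000, and 7.57% and 5.14% at 5000 UMIs, always lower in SC300. Leaving out barcodes with 2 or more genes of another cell type gave 0.559% and 1.28%, which reversed the log2 ratio to 1.19 and left 11 genes over 2-fold higher and 6 lower. Added after the data were seen, that filter without haemoglobin genes gave 2.21% and 1.51%, and 14 and 23 genes, and the *Agt*/*Aqp4*-low barcodes gave 3.19% and 2.24%.

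Of the 67 higher and 53 lower genes in SC300, the count of lower genes was 104 with at least 4 selecting genes and 116 in the low barcodes, and both counts were 13 and 22 in the high barcodes, 12 and 29 at 5000 UMIs, 142 and 94 with at least 50 UMIs, and 33 and 29 with at least 200. The 220 genes higher in selected than in subtype-marker barcodes became 460 against barcodes with 2 or more subtype UMIs and 85 in low barcodes, and the 67 lower genes became 37 at 5000 UMIs. The cause of these differences was not tested.

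Of 538 ratios of 32 genes under alternatives, 417 stayed within the original interval, 108 moved beyond it without a reversal and 13 reversed, where a reversal is a change of sign in a gene that was over 2-fold apart in the original ratios. The 417 include 32 each at minima of 50 and 200 UMIs, which cannot change a ratio. With at least 4 selecting genes *Sncg* was 1.21, *Nrgn* -1.65 and *Hba-a2* -1.88, with 0 *Snap25* UMIs *Hba-a2* was -1.77, and without its top barcode -1.76. *Fam111a* was -0.07 after leaving out other cell types. In the low barcodes *Ifi27l2b* was -1.16, and in the high barcodes *Aldh1a1* was 0.21, *Tnnc2* -2.38, *Dio3* -0.06, *Hba-a2* -2.97, *Gpc3* -0.38 and *Nrgn* -0.91. Scaling by the median of ratios, or without mitochondrial, haemoglobin and ribosomal protein genes, moved all ratios alike, by 0.03 and 0.04. Among genes under 2-fold apart the sign turned for *Crym* (0.47, -1.87 in the high barcodes and -0.04 with the filter without haemoglobin genes), *Vim* (-0.02, 0.94 in the high barcodes, 0.44 with ependymal genes under 5 per 10000, and 0.01 and 0.02 under these scalings), *Rax* (0.35, and -0.34 with that ependymal limit) and *Calml4* (0.05, -0.44 and -0.59 with the filters on other cell types, -0.32 at 5000 UMIs, -0.11 in the low barcodes, -0.01 without doublets, and -0.02 both with barcodes weighted alike and without the top barcode), which choose or mark the barcodes. No paired analysis was possible because each group has 1 library.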
